A study of Schmidtea mediterranea with 12 samples.

Results

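Among the digestive enzymes of the planarian Schmidtea mediterranea, 3 transcripts whose best human match in the study's annotation is gastric triacylglycerol lipase (LIPF) are described here across intestinal and non-intestinal tissue. They were chosen by identifier (dd_Smed_v6_257_0_1, dd_Smed_v6_4693_0_1 and dd_Smed_v6_1565_0_1, shortened below to dd_257, dd_4693 and dd_1565), are 1422, 1366 and 1507 bases long, and are 3 of the 28069 transcripts counted. All 3 passed the filter on low counts (at least 1 CPM, the read count scaled to the size of its library, in at least 4 of 12 libraries), as did 13136 transcripts in all. The 3 are called lipf here after their human match, although in one of the study's tables dd_1565 carries the match without a planarian gene name. In the study's list of reciprocal best matches to human genes, dd_257 is paired with LIPJ and dd_1565 with LIPK, other lipases of the same family. The identifiers belong to a de novo transcriptome, dd_Smed_v6, and carry no position in a genome.

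The libraries came from 4 uninjured animals of the asexual clonal line CIW4, so that all groups share 1 genotype and differ only in tissue. The animals were 6 to 9 mm long, were starved for 7 days before fixation, and were cut into sections of 20 μm, from which medial intestine, lateral intestine and non-intestine (the remaining tissue) were captured by laser in front of the pharynx, the feeding organ. Each of the 3 tissues has 4 libraries, 1 per animal, and a replicate number stands for 1 animal. The captured regions hold several cell types, and the regions were drawn by eye on sections stained with eosin rather than by a molecular marker. Reads near the 3′ end of polyadenylated RNA were counted, between 20227187 and 33296270 per library (median 25025959). Replicates of a tissue correlated across transcripts at r between 0.902 and 0.970, and no 2 libraries held identical values. Animals were starved, so the values describe fasted intestine.

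Gastric lipase in mammals is a secreted acid lipase that cleaves fatty acids from dietary triglycerides in the lumen of the stomach, and lysosomal acid lipase (LIPA) is its relative inside the cell. Planarians have no stomach: food enters a branched intestine through the pharynx, where goblet cells are secretory and phagocytes take up and digest food particles within the cell. Released fatty acids are bound, re-esterified, stored in lipid droplets or exported as lipoproteins by further proteins, whose transcripts are given below as a comparison.

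The transcript dd_257 was the most abundant of the 3 in every library, and its level fell in steps from medial to lateral intestine to non-intestine. In medial intestine the 4 animals gave 3181, 3070.4, 4500.3 and 3567 CPM, scaled here by the trimmed mean of M-values (TMM). Lateral intestine gave 1104, 966, 1120.0 and 1284 CPM, and non-intestine gave 105, 119, 108 and 118 CPM. The 3 tissues did not overlap; over all transcripts tested, every medial library lay above every non-intestinal one in 18.4%, every lateral above every non-intestinal one in 18.7% and every medial above every lateral one in 1.36%. The means were 3579.8 ± 650 CPM for medial, 1118 ± 130.1 CPM for lateral and 112.4 ± 7.20 CPM for non-intestinal tissue (SD, n = 4). Since each library is bulk tissue, fewer cells of a type and less RNA per cell cannot be told apart in this or any later difference.

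The transcript dd_4693 was lower and followed the same order of tissues. Its levels were 169, 169.8, 227 and 219.6 CPM in medial intestine and 93.2, 119, 84.1 and 98.9 CPM in lateral intestine, so that the lowest medial library lay above the highest lateral one. Non-intestine held 1.49, 1.98, 2.51 and 1.35 CPM, which rests on between 40 and 82 reads per library. The means were 196 ± 31.3, 98.9 ± 14.9 and 1.83 ± 0.525 CPM (SD, n = 4), listed from medial to lateral to non-intestinal tissue.

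The transcript dd_1565 showed another pattern, with intestinal levels that overlapped between the regions. Medial intestine gave 260.4, 225, 304 and 333 CPM, and lateral intestine gave 253.9, 269.5, 227 and 296 CPM. The 4 non-intestinal libraries were within a narrow range, at 5.38, 5.19, 5.41 and 5.53 CPM. The means were 281 ± 47.9, 262 ± 29.1 and 5.37 ± 0.142 CPM (SD, n = 4) in the same order.

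**Figure D1:**
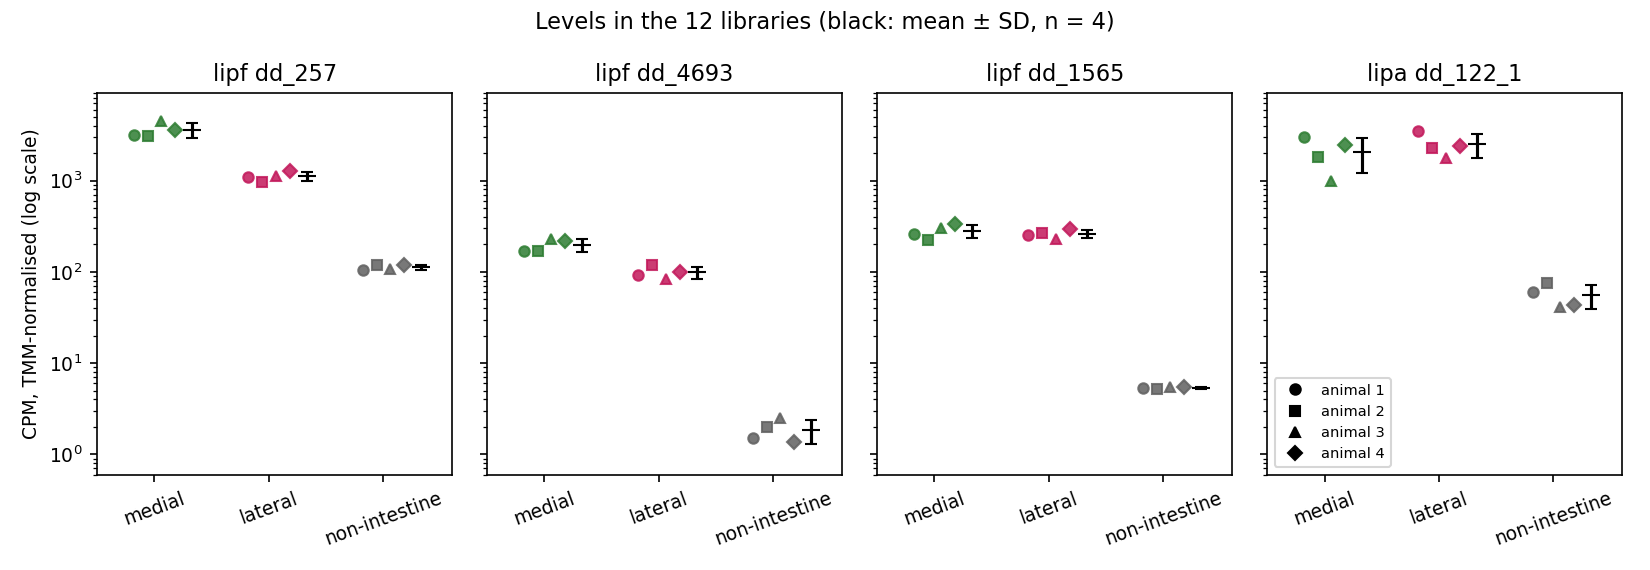
TMM-normalised CPM (log scale) of lipf dd_257, dd_4693 and dd_1565 and of lipa dd_122_1 in each of the 12 libraries; symbols mark the animal, and black bars the mean ± SD of 4 libraries. The medial and lateral points of dd_257 and dd_4693 do not overlap, while those of dd_1565 do, and every non-intestinal point lies below every intestinal point of the same transcript.

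All 3 lipf transcripts were higher in both intestinal regions than in non-intestine. In this comparison, edgeR's quasi-likelihood test was fitted to all 12 libraries, and a transcript was called where the false discovery rate (FDR, Benjamini-Hochberg over all 13136) was below 0.01 with a fold change over 2. In medial intestine, 12.8% of the transcripts tested were called higher than in non-intestine. The log2 fold change of dd_4693 was 6.74 (SE 0.26, FDR = 5.57e-10), that of dd_1565 was 5.71 (SE 0.18, FDR = 3.26e-10) and that of dd_257 was 4.99 (SE 0.18, FDR = 4.36e-10). Thus dd_257, with the highest level, had the smallest fold change of the 3. In lateral intestine, where 11.7% of transcripts were called higher, the log2 fold changes were 5.75 for dd_4693 (SE 0.25, FDR = 1.69e-09), 5.60 for dd_1565 (SE 0.18, FDR = 5.36e-10) and 3.31 for dd_257 (SE 0.17, FDR = 5.53e-09). Each of the 3 was higher in both intestinal regions in all 4 animals, as were 22.6% (medial) and 25.1% (lateral) of all transcripts tested. The study gave lipf as an example of medially enriched intestinal transcripts, found on the same libraries. These calls, and the call between the regions given below, are therefore not independent evidence of direction.

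These fold changes depended in size on how the libraries were scaled. TMM raised intestine over non-intestine by 0.70 (medial) and 0.65 (lateral) on the log2 scale, relative to scaling by library totals. With totals, the log2 fold changes of medial intestine over non-intestine were 4.29 for dd_257, 6.02 for dd_4693 and 5.00 for dd_1565, and all remained called. In the deposited TPM (scaled by transcript length and library, without TMM), the ratios of the means of medial intestine to non-intestine were 14.7 for dd_257, 49.4 for dd_4693 and 24.2 for dd_1565. The corresponding fold changes with TMM were 31.8, 107 and 52.2.

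Whether lipf differed along the mediolateral axis was tested directly, and of the 3 transcripts dd_257 was called. For this contrast, calls needed an FDR below 0.01 with a fold change over 1.5, which 17 transcripts (0.129% of those tested) met in medial and 21 (0.16%) in lateral intestine. The transcript dd_257 was called, at 3.20-fold higher in medial intestine (log2 1.68, SE 0.16, FDR = 2.62e-04), and with a term for the animal its FDR was 5.35e-04. The fold of medial over lateral intestine within each animal was 2.88, 3.18, 4.02 and 2.78. For dd_4693 the fold change was 1.98 (log2 0.99, SE 0.20, FDR = 0.0535), which did not pass the FDR threshold, and with the animal term the FDR was 0.0691. Its folds were 1.81, 1.42, 2.69 and 2.22; a fold above 1 in all 4 animals, as for dd_257 and dd_4693, was seen for 5.46% of transcripts. By the likelihood ratio test and by DESeq2, dd_4693 was called, with an FDR of 0.00395 and 2.08e-04 respectively. Its 95% interval was a fold of 1.47 to 2.68. By staining for RNA in whole animals, the study found lipf higher in medial intestinal branches and counted it among transcripts enriched in goblet cells. Which of the 3 transcripts was stained is not stated in the text of the study.

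The transcript dd_1565 gave no call and an estimate close to 1. Its fold of medial over lateral intestine was 1.07 (log2 0.10, SE 0.15, FDR = 0.985), with a 95% interval from 0.859 to 1.34, and with the animal term the FDR was 0.976. The medial level exceeded the lateral one in 3 of 4 animals, with folds of 1.03, 0.833, 1.34 and 1.12. The interval of dd_1565 did not overlap that of dd_257, which ran from a fold of 2.53 to 4.04. The medial and lateral libraries overlapped for dd_1565 and, as described above, did not for dd_257 and dd_4693.

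**Figure D2:**
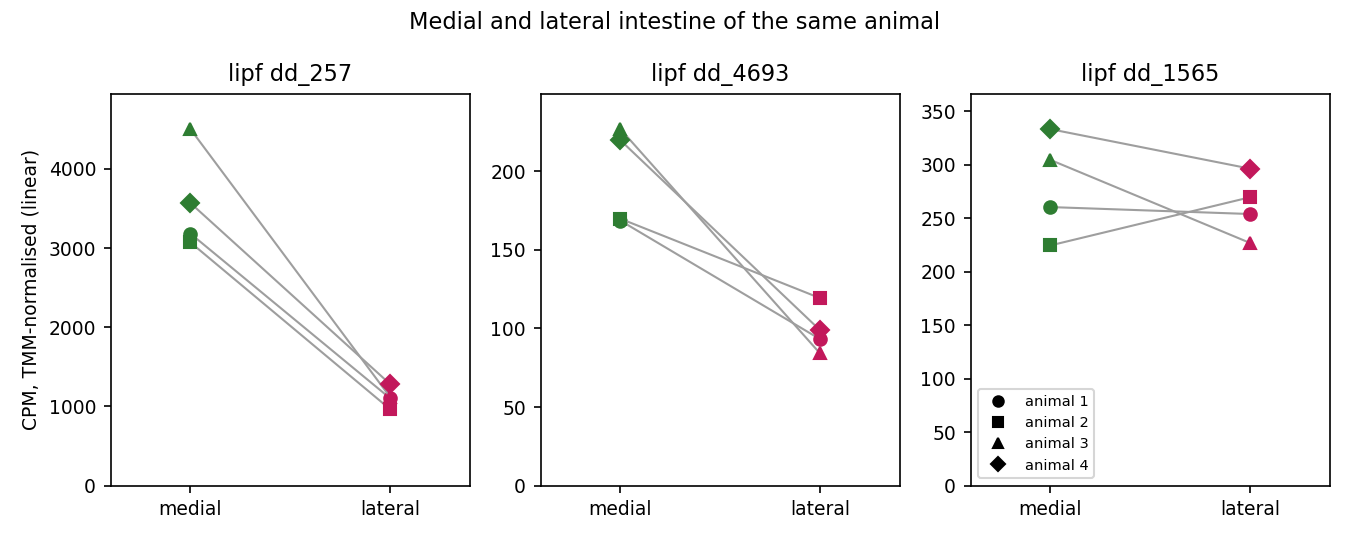
TMM-normalised CPM (linear axes from 0) of the 3 lipf transcripts in medial and lateral intestine; each line joins the 2 libraries of 1 animal. All 4 lines fall from medial to lateral for dd_257 and dd_4693, and for dd_1565 the line of animal 2 rises and the other 3 fall.

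Ratios between the transcripts within a library do not depend on scaling, so the 3 pairs were compared between regions with a two-sided exact permutation test of 4 against 4 libraries. There were 12.2, 13.7, 14.8 and 10.7 reads of dd_257 per read of dd_1565 in the medial libraries. In the lateral libraries of the same animals the ratio was 4.35, 3.58, 4.94 and 4.33, so the regions did not overlap. The ratio was 2.98-fold higher in medial intestine (log2 difference 1.58, exact p = 0.0286, adjusted over the 3 pairs 0.0286). The ratio of dd_257 to dd_4693 was 1.61-fold higher in medial intestine (log2 difference 0.68, exact p = 0.0286, adjusted 0.0286), and that of dd_4693 to dd_1565 was 1.86-fold higher (log2 difference 0.89, exact p = 0.0286, adjusted 0.0286). The medial value exceeded the lateral one in 4 of 4 animals for each pair. That p is the smallest that 4 against 4 libraries allow, and the 3 ratios are not independent, since any 2 of them fix the third. When the differences within an animal were tested by sign flips, the exact p was 0.125 for each pair, which is the smallest that 4 pairs can give.

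In non-intestine, dd_257 made up more of the lipf reads than in either intestinal region. Reads of dd_257 per read of dd_1565 were 19.5, 23.0, 19.8 and 21.2 in the 4 non-intestinal libraries, all above the highest medial value of 14.8. Reads of dd_257 per read of dd_4693 ranged from 42.6 to 86.3 in non-intestine, from 16.2 to 19.8 in medial intestine and from 8.10 to 13.3 in lateral intestine. The ratio of dd_4693 to dd_1565 in non-intestine, from 0.246 to 0.465, overlapped that of lateral intestine, from 0.333 to 0.442, and was below that of medial intestine, from 0.647 to 0.756. These ratios in non-intestine were not tested.

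Levels of different transcripts can be set side by side in the deposited TPM, which are divided by length. Because a 3′ library yields reads from the end of a transcript whatever its length, the division by length may overcorrect, although the 3 lengths are close. The ranks below are against transcripts of other lengths, so that closeness does not cover them. In medial intestine, dd_257 was at 1810.3 ± 213 TPM, dd_1565 at 134 ± 18.3 TPM and dd_4693 at 103.4 ± 11.1 TPM (SD, n = 4). In lateral intestine the order was the same, at 602 ± 46.2, 134 ± 17.7 and 56.0 ± 11.8 TPM. By rank of TPM within a library, where 1 is the most abundant transcript, dd_257 held places 48 to 68 in the medial, 136 to 179 in the lateral and 875 to 957 in the non-intestinal libraries. The ranks of dd_1565 were nearly alike in both intestinal regions, from 491 to 638 in medial and from 497 to 609 in lateral intestine, and those of dd_4693 ran from 617 to 743 and from 934 to 1235.

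The summed TPM of the 3 transcripts was 2048 ± 228 in the medial, 792 ± 56.1 in the lateral and 130.5 ± 4.43 in the non-intestinal libraries (SD, n = 4). Of this sum, dd_257 held 88.4% ± 1.17 of the medial, 76.1% ± 2.97 of the lateral and 94.1% ± 0.611 of the non-intestinal sum. The share of dd_1565 was 6.58% ± 0.847, 16.8% ± 1.58 and 4.26% ± 0.296 in the same tissues. The share of dd_4693 was 5.06% ± 0.375, 7.08% ± 1.46 and 1.60% ± 0.487. Thus dd_4693, although lower in lateral intestine in TPM, took a larger mean share of a smaller lipf sum there, and its lateral share of 6.16% to 9.24% was above the medial share of 4.70% to 5.56% in every library.

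**Figure D3:**
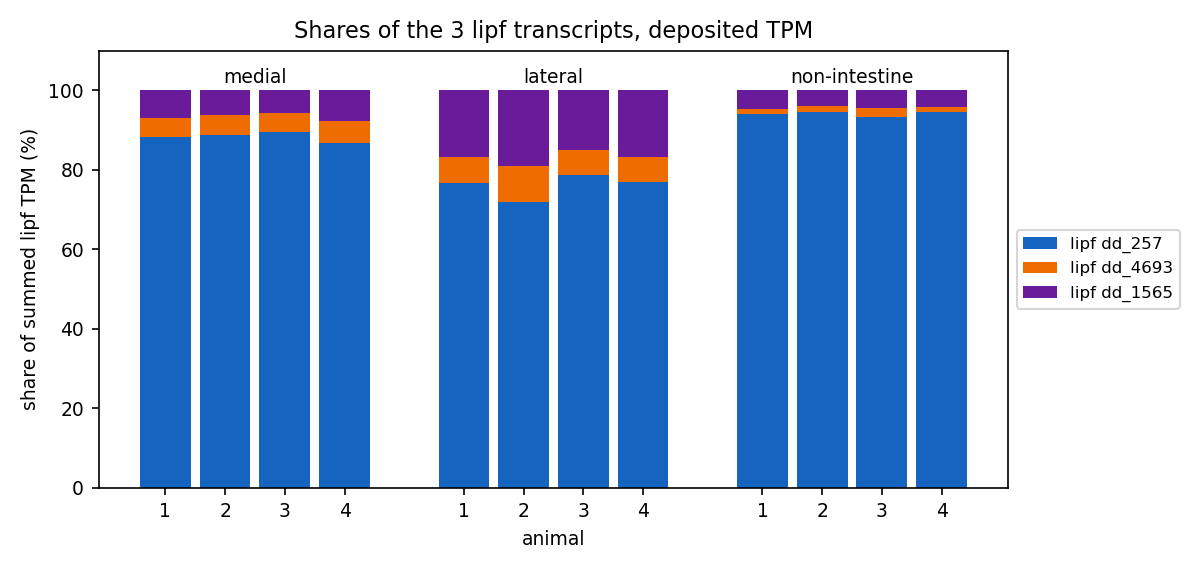
Share (%) of each lipf transcript in the summed deposited TPM of the 3, 1 bar per library, by animal and tissue. The dd_257 part is 86.8% to 89.6% of the medial, 71.8% to 78.8% of the lateral and 93.3% to 94.7% of the non-intestinal bars.

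The level left in non-intestine was compared with that of markers of intestinal cells. The mean non-intestinal level of dd_257 was 3.14% of its medial and 10.1% of its lateral level, that of dd_1565 was 1.92% and 2.05%, and that of dd_4693 was 0.934% and 1.85%. Markers of medial goblet cells (cg7631 dd_254 and rpz4 dd_279) were at 0.368% and 0.474% of their medial and 4.77% and 5.35% of their lateral level. The goblet markers npc2 (dd_73) and pi16 (dd_2021) were at 1.17% and 0.456% of their medial level. Phagocyte markers (ctsla dd_267, ctsl.1 dd_48, apob-1 dd_636 and apob-2 dd_194) were at 1.39% to 3.05%, and markers of basal cells (slc22a6 dd_1159, zgc:172053 dd_10_1, tdo2 dd_3550 and uroc1 dd_1655) at 2.97% to 5.98%. The lateral goblet markers (spint3 dd_300, eppin dd_101 and nid2 dd_25) were at 3.85% to 9.02% of their medial and 0.758% to 1.23% of their lateral level. Thus the percentage of the medial level found in non-intestine was higher for dd_257 than for the goblet, medial goblet and phagocyte markers. It was lower than for the lateral goblet markers and within the range of the basal markers. Of their lateral level, the goblet markers were at 1.13% to 2.45%, the phagocyte markers at 1.45% to 2.98% and the basal markers at 2.84% to 4.89%. Measured against the lateral level, dd_257 (10.1%) was above every one of these intestinal markers. It was not above every medial transcript, however. The 13 other medial transcripts listed below were at 0.0938% to 8.43% of their medial and 1.13% to 19.7% of their lateral level. The highest of both ranges was pgrp-lb (dd_1523), above dd_257 by either measure. No difference in these percentages was tested. The part of intestinal RNA carried into the non-intestinal captures was not tested.

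Marker levels also varied between the regions whose lipf levels are compared. The summed level of the 2 medial goblet markers was 7893 to 13700.5 CPM in medial, 660.4 to 905 CPM in lateral intestine and 17.9 to 65.6 CPM in non-intestine. The 3 lateral goblet markers summed to 4307 to 7266, 32139 to 35743 and 209.6 to 543 CPM, and the 2 goblet markers npc2 and pi16 to 1699.5 to 3220, 1009 to 1307 and 15.5 to 39.7 CPM. The 4 phagocyte markers summed to 17961 to 25323 CPM in medial and 18367 to 23936 CPM in lateral intestine, ranges that overlap, against 418 to 596 CPM in non-intestine. The 4 basal markers summed to 15448 to 22888, 17071 to 29185 and 629 to 973 CPM. None of these intestinal markers was at 0 in any tissue. The 5 markers of tissue outside the intestine summed to 103.4 to 145 CPM in medial, 128 to 205 CPM in lateral intestine and 322 to 372 CPM in non-intestine. Most of the intestinal sums was PIWIL1 (dd_1258), with means of 120, 148 and 245 CPM in the same order. The others differed from it: PCSK2 (dd_1566) had means of 4.02, 3.54 and 57.7 CPM, and TEKT2 (dd_2339) of 2.64, 1.51 and 35.6 CPM. The means of CNN1 (dd_1512) were 1.07, 1.55 and 1.45 CPM, and SLC18A3 (dd_11630) had no read in any medial library. The 3 mucin-like markers of cells around the pharynx summed to 1.06 to 28.5 CPM in medial, 1.27 to 3.99 CPM in lateral intestine and 0.945 to 41.1 CPM in non-intestine. The medial library of animal 4 held the 28.5 CPM, and the other medial libraries at most 2.91 CPM. The part of these differences in the lipf results was not tested.

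In medial against lateral intestine, the log2 fold change of dd_257 (1.68) lay between those of the goblet and of the medial goblet markers. That of dd_1565 (0.10) lay within the range of the phagocyte markers and also within that of the basal markers. The medial goblet markers were called, at 3.70 for cg7631 and 3.50 for rpz4 (dd_279). The goblet markers npc2 and pi16 were at 1.06 (FDR = 0.176) and 1.31 (FDR = 0.088) and were not called, and by value they were close to dd_4693 (0.99). The phagocyte markers were between -0.04 and 0.39 and were not called, nor were the basal markers, between -0.29 and 0.14. The lateral goblet markers were called in the other direction, between -3.01 and -2.14. No difference between a lipf transcript and a marker was tested.

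**Figure D4:**
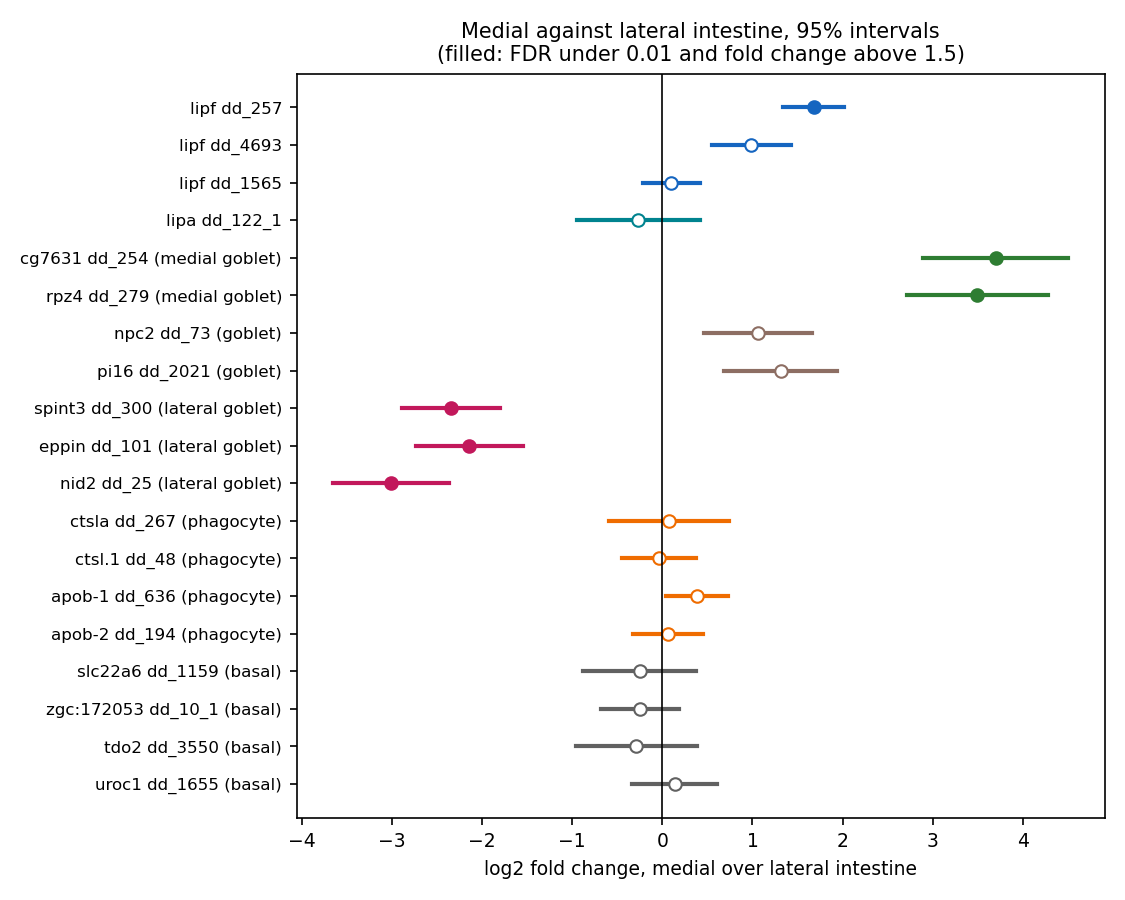
Log2 fold change of medial over lateral intestine, with 95% intervals from edgeR's quasi-likelihood fit, of the lipf transcripts, lipa and the markers of intestinal cells; filled points had an FDR below 0.01 with a fold change over 1.5. Of the lipf transcripts dd_257 is filled, and the interval of dd_1565 includes 0.

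In animal 3, dd_257, dd_4693 and dd_1565 all had their largest fold of medial over lateral intestine, at 4.02, 2.69 and 1.34. The summed goblet markers npc2 and pi16 were 3.18 times as high in medial as in lateral intestine in that animal and 1.68 to 1.98 times in the other 3, and the medial goblet markers 15.1 times against 9.84 to 12.0 times. The phagocyte markers were 1.13 times as high in medial intestine in animal 3 and 0.88 to 1.06 times in the others. The basal markers were at 1.02 times in animal 3 and 0.71 to 0.90 times in the others, and the lateral goblet markers at 0.206 against 0.134 to 0.195 times. Thus each of these marker sums had its highest ratio in animal 3, while lipa (dd_122_1) had its lowest fold there, at 0.557. The part of the marker ratios in the lipf values was not tested. Leaving out animal 3 left dd_257 called, and the range of its log2 fold change without any 1 library or animal was 1.55 to 1.75.

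By edgeR's estimate, the lipf transcripts varied less between animals than most transcripts tested. The biological coefficient of variation was 0.202 for dd_1565, 0.211 for dd_257 and 0.234 for dd_4693, and the median over all transcripts tested was 0.472. The trend that edgeR fitted by abundance was nearer, at 0.326, 0.337 and 0.324 in the same order. A coefficient lower than that of the lipf transcript was found for 2.40%, 4.02% and 9.93% of the transcripts. Within medial intestine the SD of the CPM was 18.1% of the mean for dd_257, 15.97% for dd_4693 and 17.1% for dd_1565, against a median of 45.1% over all transcripts. In non-intestine the SD was 2.64% of the mean for dd_1565 and 6.40% for dd_257, but 28.7% for dd_4693, the transcript with the fewest reads there, and the median over all was 24.3%.

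Lysosomal acid lipase, lipa (dd_122_1), the intracellular relative of lipf, was abundant in both regions and varied more between animals. Its levels were 2981, 1812, 989 and 2478 CPM in medial intestine, 3495, 2302, 1773 and 2370.5 CPM in lateral intestine and 60.5, 75.8, 40.8 and 43.3 CPM in non-intestine. It was higher in medial (log2 fold change 5.23, SE 0.38, FDR = 1.66e-07) and lateral intestine (5.50, SE 0.39, FDR = 1.27e-07) than in non-intestine. Between the regions it was not called (log2 fold change -0.27, SE 0.32, FDR = 0.972), with a 95% interval of the fold of medial over lateral from 0.517 to 1.34. The medial level was the higher of the 2 in 1 of 4 animals. In TPM, lipa was at 1203 ± 532 in medial and 1521 ± 459 in lateral intestine (SD, n = 4), so that dd_257 had the higher mean of the 2 lipases in medial and lipa in lateral intestine. By staining for RNA in whole animals, the study found lipa enriched toward the posterior. All tissue captured here lay in front of the pharynx, so these levels do not describe the posterior intestine.

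The other lipases and phospholipases of the intestine were higher in both regions than in non-intestine. All 14 of a list of 14 were called higher in medial and all 14 in lateral intestine than in non-intestine. Of all transcripts tested, 12.8% (medial) and 11.7% (lateral) were called higher. The median log2 fold changes of the list were 2.32 and 2.51, while over all transcripts tested the medians were -0.17 and -0.12. The study picked the 14 as intestine-enriched on the same libraries, so the counts for the list are not independent evidence of direction. With library totals in place of TMM, 11 and 10 of the 14 were called. In medial against lateral intestine, 0 of 14 were called in either direction by edgeR's quasi-likelihood test, the likelihood ratio test or DESeq2. Since the quasi-likelihood test called 0.129% of all transcripts higher and 0.16% lower, a count of 0 in a list of this size does not set it apart. The median log2 fold change was 0.14, against -0.03 over all transcripts. The pair with the highest TPM were PLBD2 (dd_485), a lysosomal phospholipase B-like protein, with log2 fold changes of 2.04 and 1.91 over non-intestine and 0.13 between the regions, and plb1 (dd_2690), a membrane phospholipase B, with 7.46, 7.25 and 0.21.

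Proteins that bind, re-esterify, store and export fatty acids, another list of 14, gave 14 called higher in medial and 13 in lateral intestine than in non-intestine. Of all transcripts tested, 12.8% (medial) and 11.7% (lateral) were called higher. The median log2 fold changes of the list were 3.17 and 2.99, against -0.17 and -0.12 over all transcripts. With library totals, 11 of the 14 were called in each region. Here too the study chose the members on these libraries. Between the regions 0 of 14 were called in either direction by any of the same 3 tests, with a median of 0.10, and against the shares called over all transcripts (0.129% higher, 0.16% lower) this count does not set the list apart either. The most abundant were plin5 (dd_154), a coat protein of lipid droplets, with log2 fold changes of 3.36 and 3.19 over non-intestine and 0.17 between regions, and fabp7 (dd_271), a fatty acid-binding protein, with 3.09, 2.98 and 0.10.

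Transcripts that the study had picked as medially enriched on these libraries, other than lipf, had a median difference above that of any lipf transcript. Of 13, 10 were called higher in medial than in lateral intestine and 0 lower, with a median log2 fold change of 2.56. Of all transcripts tested, 0.129% were called higher and 0.16% lower, with a median of -0.03. Because the 13 were picked for medial enrichment on the same libraries, their count and median are not independent evidence of direction. With the animal term 7 were called, and 3 missed the threshold (pgrp-lb, FDR = 0.0115; klk13 and KLK13, FDR = 0.0107 each). The 10 were cg7631 (3.70); 3 rpz4 transcripts, dd_279 (3.50), dd_634 (2.56) and dd_827 (3.53); the serine proteases klk13 (dd_3728, 3.46), KLK13 (dd_975, 2.14) and Gzmm (dd_66, 4.00); gm2a (dd_214_1, 2.17), a cofactor of glycolipid breakdown; pgrp-lb (dd_1523, 1.22), a peptidoglycan recognition protein; and dd_72 (2.66), which has no name. The log2 fold change of dd_257, 1.68, was below 9 of these 10 and above that of pgrp-lb. Only cg7631 and rpz4 dd_279 of the 10 kept the call in each of 16 settings that left out 1 library or 1 animal, as dd_257 did. The transcript npc2, a sterol-binding protein with the second highest TPM of the list, was not called.

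**Figure D5:**
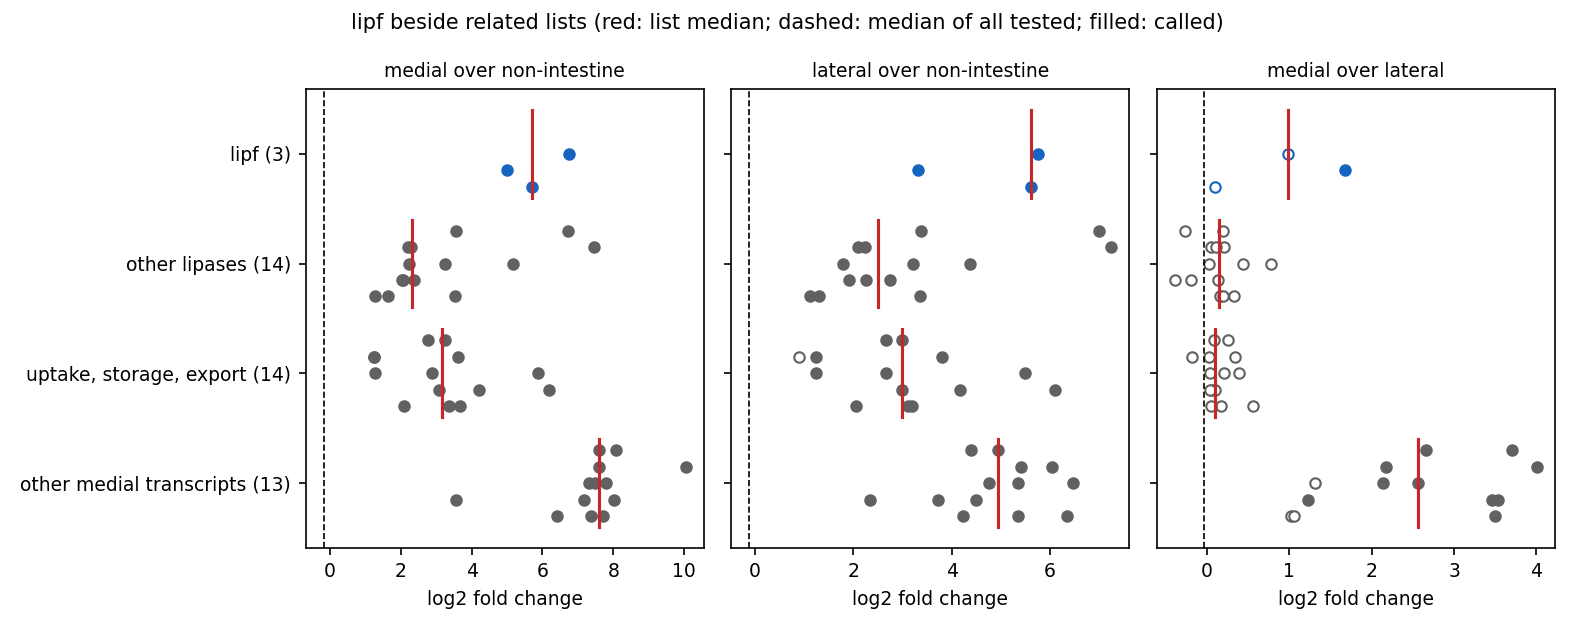
Log2 fold changes in the 3 contrasts of the lipf transcripts, of 14 other lipases, of 14 transcripts of fatty acid uptake, storage and export, and of 13 other medial transcripts; red lines mark list medians, dashed lines the median of all transcripts tested, and filled points were called. In the right panel, no point of the other lipases or of the uptake list is filled.

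Transcripts whose pattern was most like that of each lipf transcript were ranked by Pearson's r of log2(CPM + 1) over the 12 libraries, which fall into 3 tissues, so that r mostly reflects tissue means. Nearest to dd_257 were dd_4411 (r = 0.997), rpz4 dd_634 (0.993), dd_5691 (0.992), dd_1726 (0.992) and gm2a (0.989), whose log2 fold changes of medial over lateral intestine were 2.09, 2.56, 1.84, 0.79 and 2.17. Nearest to dd_4693 were pi16 (0.997), dd_182 (0.995), dd_1622 (0.995), dd_1488 (0.995) and dd_4056 (0.994), with 1.31, 0.78, 0.23, 0.94 and 0.24. Nearest to dd_1565 were dd_32, dd_8956, dd_4119, dd_994 and dd_1144, with r between 0.998 and 0.999 and log2 fold changes from 0.02 to 0.12. No lipf transcript was among the 5 nearest to another. The rank of a pair among 13135 transcripts depended on which of the 2 was the reference. For dd_257 and dd_4693 (r = 0.978), dd_4693 ranked 18 for likeness to dd_257, and dd_257 ranked 255 for likeness to dd_4693. For dd_257 and dd_1565 (r = 0.947), dd_1565 ranked 209 and dd_257 ranked 788 by the same reading, and for dd_4693 and dd_1565 (r = 0.989), dd_1565 ranked 52 and dd_4693 ranked 179.

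The 3 transcripts have the same best human match, and how far their sequences resemble each other near the 3′ end was not analysed here. The division of reads among the 3 is uncertain to the extent that they resemble each other there.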

How the data were processed

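Per the labels and the study's methods, tissue was captured by laser from 4 animals, and 5 ng of total RNA per sample entered a 3′ mRNA kit. Read trimming by the authors used BBDuk, alignment to 28069 transcripts used Bowtie2 2.3.1, and SAMtools 1.3 gave the read counts (the submitters' processing notes also name FastQC and edgeR 3.8.6). The authors deposited these counts, which are not normalized and are the values tested here. They also deposited a signal of TMM-scaled CPM, RPKM and TPM; the deposited TPM were used where levels of different transcripts are set side by side, and the signal and the RPKM were not used. The authors' table further holds log2 fold changes and mean log2 CPM, likelihood ratio scores, p-values and FDR, and lengths of transcripts; none of these was used except the deposited lengths.

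Counts were fitted in R 4.3.3 with edgeR 4.0.16 (glmQLFit, glmQLFTest; limma 3.58.1), all 12 libraries in 1 model with a term for tissue, TMM factors, and a minimum of 1 CPM in 4 libraries. The transcripts tested held between 99.7% and 99.9% of the counts of a library. TMM factors were 0.765 to 0.923 in medial intestine, 0.794 to 0.985 in lateral intestine and 1.21 to 1.50 in non-intestine. SEs, which are approximate, equal the size of a log2 fold change over the root of its F statistic. The fit was tested on simulated data, as were the permutation tests (scipy 1.17.1, with pandas 2.3.3 and numpy 2.4.6; Python 3.11.15; figures with matplotlib 3.10.9). Ratios between transcripts used a pseudocount of 0.5. Reads carry no molecular identifier that the sources used here name, so low counts may include PCR copies. Libraries with the same number came from the same animal; the animal is a term only in an alternative, as the study's methods name none. Deviations from the tissue means correlated across transcripts between same-numbered libraries at r between 0.033 and 0.172 (medial and lateral), between -0.003 and 0.153 (medial and non-intestine) and between 0.082 and 0.247 (lateral and non-intestine), above 0 in 11 of 12 pairs. Between libraries of different numbers, r ran from -0.322 to 0.237, from -0.254 to 0.154 and from -0.230 to 0.178 in the same order. These ranges overlap those of same-numbered libraries.

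Members, lists and markers were chosen with earlier results of these data known. Named were the lipf transcripts, lipa, markers, the members of each list called between the intestinal regions or with the 2 highest TPM, and the 5 transcripts most like each lipf transcript; names come from the study's tables. Of the lists and markers, 1 transcript is not reported here. Alternatives were the likelihood ratio test, DESeq2 1.42.0, RLE size factors, library totals, no filter beyond 1 count, a minimum of 5 CPM, the animal term, only the 2 tissues compared, and leaving out each library or animal.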

Additional observations from a re-analysis of the deposited data

How the results depend on the processing

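Each of the 9 lipf results (3 transcripts in 3 contrasts) was recomputed under 24 alternatives. All but 2 of these 216 values were on the same side of the threshold as the main value, and 215 had its direction; the exception was dd_1565 between the intestinal regions, at -0.003 without animal 3. These 2 were both dd_4693, in medial against lateral intestine, which was called by the likelihood ratio test (0.99) and by DESeq2 (0.98); the cause was not tested. Leaving out 1 library or animal gave log2 fold changes of medial over lateral intestine of 1.55 to 1.75 for dd_257, 0.84 to 1.14 for dd_4693 and -0.003 to 0.20 for dd_1565. With the animal as a replicate block, the values were 1.67, 0.98 and 0.09, and no lipf call changed.

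The 3 ratios within a library kept their direction and size without a pseudocount. Without 1 animal they lay between 0.52 and 0.80 (dd_257 to dd_4693), 1.46 and 1.67 (dd_257 to dd_1565) and 0.86 and 0.94 (dd_4693 to dd_1565) on the log2 scale, where 3 against 3 libraries cannot give an exact p below 0.1. The differences under sign flips of the pairs, 0.68, 1.58 and 0.89, reached an exact p of 0.125, the smallest possible.

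The numbers of transcripts called moved more. Called higher and lower in medial against lateral intestine were 17 and 21 in the main test, 47 and 128 by the likelihood ratio test, 51 and 118 by DESeq2, 13 lower with the replicate block, and 10 lower with only the 2 tissues compared. Leaving out 1 library or animal gave 6 to 17 higher and 5 to 20 lower; without animal 2 both numbers were 6, without animal 1 they were 9 and 5. With library totals, 954 were higher and 2854 lower in medial intestine against non-intestine (main: 1676 and 1511, RLE: 1424 and 1711). In lateral intestine 930 were higher and 2207 lower (main: 1543 and 1149, RLE: 1344 and 1301). Relative to TMM, scaling by totals lowered intestine against non-intestine by 0.70 (medial) and 0.65 (lateral) on the log2 scale. Leaving out 1 library or animal gave 664 to 1721 lower in medial and 407 to 1368 lower in lateral intestine. The library totals for the lists were an alternative chosen after seeing the data. In non-intestine dd_4693 rests on few reads, which limits the precision of its fold changes there.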
